A study of Arabidopsis thaliana with 12 samples.

Results

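The 10 genes described here are synthesis and response genes of abscisic acid (ABA) in Arabidopsis thaliana, chosen by name and locus code: NCED3, CYP707A1, CYP707A3, ABI1, ABI2, HAI1, HAI2, ABF3, RD29B and RAB18. All 10 were found among the 34262 gene identifiers counted, and all 10 were among the 18698 genes with enough reads to be tested. Leaf 13 of plants 5 weeks old provided the RNA, in 4 groups of 3 samples, each sample pooling leaves of 2 plants: isi1-2 plants whose leaf 8 had been crushed 1 h earlier over 50 to 60% of its lamina, isi1-2 plants left unwounded, wounded wild type (WT) and unwounded WT. WT is the accession Col-0, and isi1-2 is an insertion line (SALK_014032) of the gene ISI1, represented by this 1 allele. Leaf 13 itself was not crushed, so the wounding comparison concerns a distant leaf, 1 h after damage elsewhere on the plant. Plants of all 4 groups grew in 10 h of light and 14 h of dark at 21 °C. No group received ABA or was short of water as far as the labels say, and ABA itself was not measured.

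ABA is the plant hormone best known for closing stomata and slowing growth when water is short, and for holding seeds dormant. NCED3 cleaves a carotenoid precursor in the step that limits ABA synthesis in drying leaves, and the CYP707A cytochrome P450 enzymes hydroxylate ABA and so remove it. ABA-bound PYR/PYL receptors inhibit type 2C protein phosphatases such as ABI1, ABI2, HAI1 and HAI2. These phosphatases otherwise keep SnRK2 kinases inactive, and the released kinases activate ABF transcription factors such as ABF3. ABF proteins bind ABA response elements (ABREs) in target promoters, among them those of RD29B and RAB18, which encode hydrophilic proteins of dehydrated tissue. Genes for the phosphatases and the CYP707A enzymes are themselves known targets of ABA, a negative feedback.

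In the RefSeq annotation of TAIR10.1, NCED3 (AT3G14440) is a gene of 1 exon at chr3:4831286-4834015. Of the catabolic pair, CYP707A1 (AT4G19230) lies at chr4:10521259-10523961 and CYP707A3 (AT5G45340) at chr5:18368532-18371021. The phosphatase genes are ABI1 (AT4G26080, chr4:13219915-13222376), ABI2 (AT5G57050, chr5:23087122-23089631), HAI1 (AT5G59220, chr5:23894404-23896939) and HAI2 (AT1G07430, chr1:2280746-2282828). ABF3 (AT4G34000) lies at chr4:16295334-16298285. The targets are RD29B (AT5G52300, chr5:21237021-21239531) and RAB18 (AT5G66400, chr5:26518277-26519447). Among aligned residues the ABI1 and ABI2 proteins are 80% identical, HAI1 and HAI2 63.6%, and an ABI with a HAI protein 43.2 to 47.3%. CYP707A1 and CYP707A3 are 82.7% identical. No window of 100 bases within an exon of any member occurred elsewhere in the genome as an exact match. Error-free reads of that length within an exon would thus tell these paralogues apart. Windows across splice junctions and reads with mismatches were not examined. The genes ABI1, ABF3 and RAB18 overlap a neighbour on the opposite strand over 1.01%, 0.982% and 1.01% of their exon bases.

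Promoters were read from 250 bases before to 50 bases after each annotated gene start. An ABRE, searched as ACGTGGC or ACGTGTC on both strands, stood in 4 of the 10 member promoters and in 7.64% of 27443 promoters of the genome. The 4 promoters are printed 5′ to 3′ on the gene's strand, because the ABRE is the element through which ABF factors act and because the genes that carry it were not called alike after wounding. Capitals mark the motif matches: the ABRE in all 4, the G-box CACGTG in both CYP707A promoters and the DRE core CCGAC, a site of drought and cold factors, in RD29B. Sequences are from RefSeq TAIR10.1.
CYP707A1, chr4:10521009-10521308, plus strand: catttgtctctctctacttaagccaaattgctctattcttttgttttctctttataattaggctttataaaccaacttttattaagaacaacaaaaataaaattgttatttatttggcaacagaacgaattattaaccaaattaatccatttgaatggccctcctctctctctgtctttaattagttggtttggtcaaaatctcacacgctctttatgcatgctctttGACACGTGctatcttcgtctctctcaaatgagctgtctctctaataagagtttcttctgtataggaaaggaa
CYP707A3, chr5:18370972-18371271, minus strand: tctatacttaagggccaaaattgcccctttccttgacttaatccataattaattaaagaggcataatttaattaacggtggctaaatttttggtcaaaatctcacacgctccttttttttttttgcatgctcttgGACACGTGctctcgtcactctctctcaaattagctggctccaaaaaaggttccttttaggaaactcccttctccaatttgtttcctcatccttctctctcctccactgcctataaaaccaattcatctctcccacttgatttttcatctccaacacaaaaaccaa
RD29B, chr5:21236771-21237070, plus strand: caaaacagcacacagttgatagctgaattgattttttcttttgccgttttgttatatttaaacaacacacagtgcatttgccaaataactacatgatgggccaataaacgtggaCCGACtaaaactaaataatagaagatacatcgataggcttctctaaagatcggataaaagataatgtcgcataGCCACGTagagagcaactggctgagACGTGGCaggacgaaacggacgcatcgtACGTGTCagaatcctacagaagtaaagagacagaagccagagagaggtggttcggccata
RAB18, chr5:26519398-26519697, minus strand: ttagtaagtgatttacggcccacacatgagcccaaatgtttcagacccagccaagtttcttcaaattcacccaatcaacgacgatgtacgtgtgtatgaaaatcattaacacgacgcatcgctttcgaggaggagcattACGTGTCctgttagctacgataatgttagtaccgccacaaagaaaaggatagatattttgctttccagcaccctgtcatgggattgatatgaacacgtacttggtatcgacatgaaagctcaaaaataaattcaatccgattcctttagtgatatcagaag
Both CYP707A promoters hold the same run, GACACGTG, in which an ABRE and a G-box overlap. It begins 22 bases before the start of CYP707A1 and 115 bases before that of CYP707A3. RD29B holds ABREs 63, 38 and 10 bases before its start and the DRE core at 136 bases, and RAB18 holds 1 ABRE at 111 bases. The G-box stood in 7.68% and the DRE core in 15% of all promoters. For NCED3, ABI1, ABI2, HAI1, HAI2 and ABF3 none of these exact strings stood in the window. That says nothing about elements farther away or about variants of the strings. The shorter run ACGTG, shared by both searched ABRE forms, does stand in the windows of HAI2 and, on the other strand, ABF3.

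Library depth was even, at 23307790 to 30747778 reads counted in genes, so 3 reads correspond to 0.0976 to 0.129 CPM, a gene's count scaled to library size. ISI1 had 1 to 4 reads in the isi1-2 libraries against 253 to 337 in WT, as the labels require. JAZ10, a wound and jasmonate response gene, had 393.5 to 426 CPM in wounded isi1-2, 234 to 347 CPM in wounded WT and no more than 1.30 CPM in any unwounded library. Replicate 1 of wounded WT stood apart from the other libraries of its group (r of 0.986 to 0.989, against 0.990 to 0.993 in the other pairs of replicates), and calls of members that were lost without it are given. The 3 mesophyll markers, from photosynthesis, summed to 45200 to 50800 CPM in wounded and 51300 to 55600 CPM in unwounded leaves of the 2 genotypes, so the labelled leaf tissue carried its markers. Of 3 root markers, EXPA7 and EXPA18 had 0 reads in all 12 libraries and SCR had 351 to 679. Of 3 seed markers, OLEO1 had 0 reads in all libraries, CRA1 had 0 to 7, and SESA1 had 7 to 27 in wounded isi1-2 and 3 to 41 in wounded WT against 0 in every unwounded library.

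Several cell type markers also moved with wounding. Of the mesophyll markers, RCA was called lower in both genotypes, at a log2 fold change of -0.61 in isi1-2 and -0.52 in WT. RBCS1A was called lower in WT, and CAB1 was not called. The root marker SCR was called lower and the seed marker SESA1 higher in both genotypes. Guard cell markers, relevant because guard cells are a main site of ABA response, summed to 65.8 to 74.2 CPM in wounded and 68.6 to 87.6 CPM in unwounded isi1-2, and to 68.3 to 83.0 CPM in wounded and 88.6 to 89.5 CPM in unwounded WT. Of these 3, MYB60 alone was called, lower in both genotypes. Epidermal markers summed to 322 to 369 CPM in wounded and 358 to 393 CPM in unwounded isi1-2. In WT they summed to 283 to 302 CPM in wounded and 326 to 340.0 CPM in unwounded plants. The isi1-2 sums thus lay above those of WT without overlap in both treatments. Between genotypes CER6 was called higher in wounded isi1-2 (0.32, edgeR adjusted p = 0.0157), where KCS2 and ATML1 were not called. In unwounded plants no epidermal marker was called between genotypes. With wounding ATML1 alone was called, at a log2 fold change of -1.09 in isi1-2 and -0.99 in WT. The other epidermal markers leaned the other way without a call, KCS2 at 0.31 and 0.34 and CER6 at 0.13 and 0.05. Trichome markers summed to 1.77 to 2.82 CPM in wounded and 3.95 to 5.58 CPM in unwounded leaves, with TRY lower in both genotypes, GL2 lower in WT and GL1 at no more than 1 read. Phloem companion cell markers summed to 497 to 566 CPM in wounded against 454 to 539 CPM in unwounded leaves. Among them AHA3 was called higher in both genotypes, APL was called lower in WT, and SUC2 was not called. Xylem markers had no called gene. The part of these shifts in the results was not tested, and in whole leaves fewer cells of a type and less RNA per cell cannot be told apart.

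Wounding leaf 8 moved most of these genes in leaf 13 within 1 h. The paralogues ABI1 and ABI2 moved in opposite directions, as did CYP707A1 and CYP707A3, where the CYP707A3 calls were fragile. HAI1 and HAI2 were not opposed in isi1-2, at log2 fold changes of 2.01 and 0.73 (HAI2 not called). In both genotypes the catabolic gene CYP707A1 and the phosphatase gene ABI1 rose, while NCED3, CYP707A3, ABI2 and ABF3 fell. HAI1 rose past the threshold in isi1-2, HAI2 and RAB18 fell past it in WT, and RD29B passed it in neither. The threshold was a Benjamini-Hochberg adjusted p under 0.05 in edgeR's quasi-likelihood test, adjusted over all 18698 genes. In isi1-2, 7 of 10 members were called, 3 higher and 4 lower, in a comparison that called 50.9% of all genes, 25.1% higher and 25.7% lower. In WT, 8 of 10 were called, 2 higher and 6 lower, where 46.9% of all genes were called, 23.9% higher and 23% lower. In absolute size, the members' log2 fold changes had a median of 0.79 in isi1-2 and 0.86 in WT, beside 0.31 and 0.28 over all genes. Wounded and unwounded libraries did not overlap for 6 members in isi1-2 (59.6% of all genes) and 8 in WT (55.7%). Asking for a change of at least 2-fold left 3 members in isi1-2 (CYP707A1, ABI1 and HAI1, with 14.8% of all genes) and 2 in WT (CYP707A1 and ABF3, with 13.4%).

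**Figure D1:**
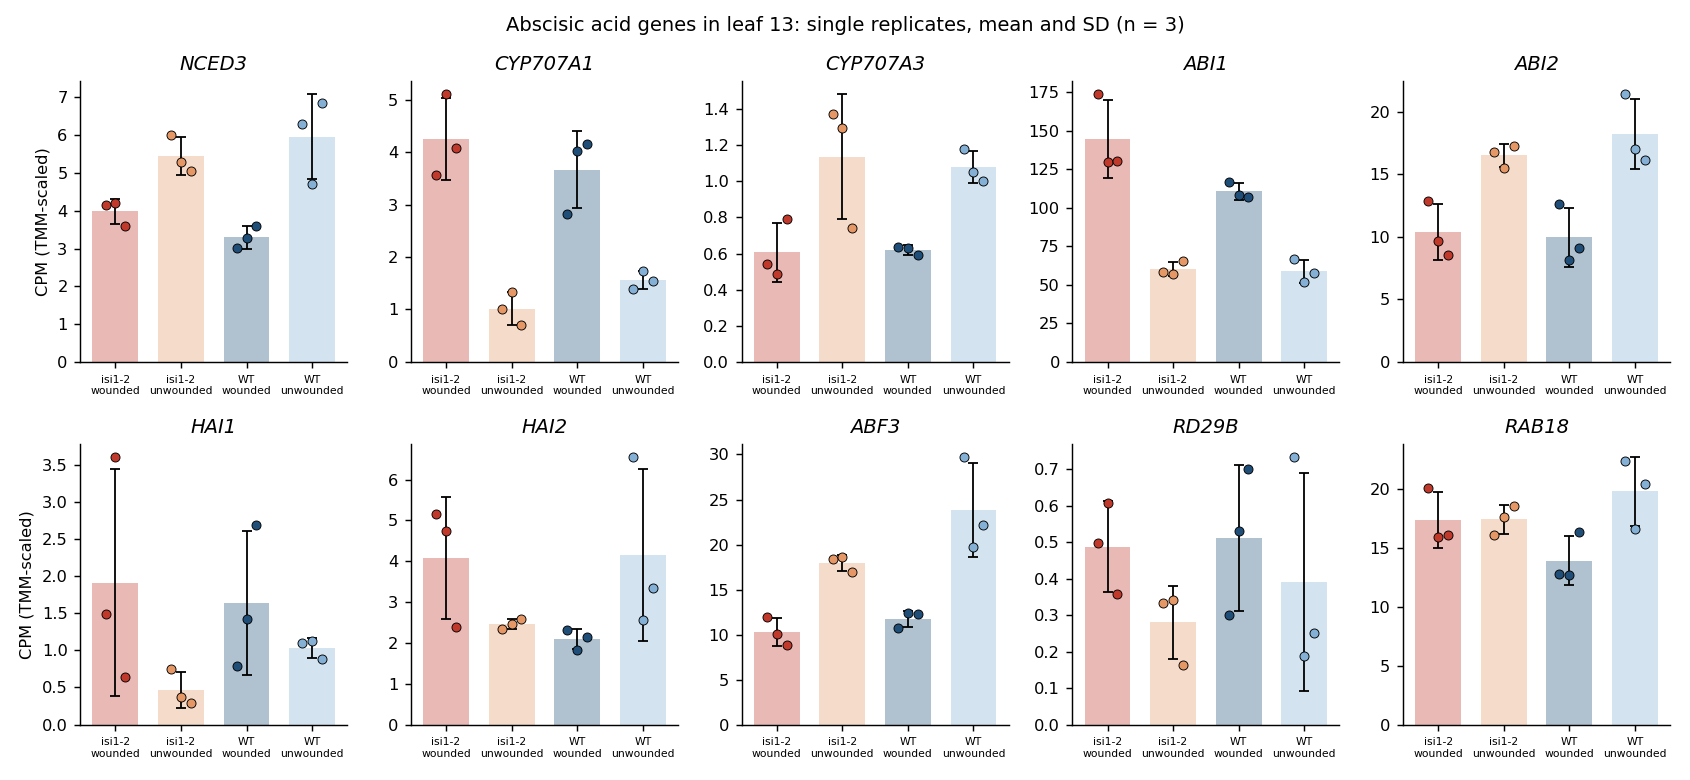
CPM of the 10 genes in each library, 1 panel a gene with its own axis, with the 4 groups along the horizontal axis, a point for each of the 3 replicates, a bar from 0 to the group mean and a whisker for the SD. CYP707A1 and ABI1 lie higher in both wounded groups, NCED3, ABI2 and ABF3 lie lower, and HAI1 and HAI2 have wide spreads.

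NCED3, the synthesis gene, was lower in the leaves of wounded plants. It had 4.15, 4.21 and 3.61 CPM in wounded isi1-2 against 6.01, 5.28 and 5.06 CPM in unwounded isi1-2. In WT it had 3.00, 3.28 and 3.61 CPM in wounded plants against 6.31, 4.70 and 6.86 CPM in unwounded plants. Wounded and unwounded libraries did not overlap in either genotype. The log2 fold change was -0.45 (SE 0.15, edgeR adjusted p = 0.0217) in isi1-2 and -0.85 (SE 0.15, edgeR adjusted p = 0.000267) in WT. The call in isi1-2 was lost without its unwounded replicate 1 (-0.37, edgeR adjusted p = 0.0857) or its wounded replicate 3 (-0.38, edgeR adjusted p = 0.0831).

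The CYP707A paralogues, whose enzymes inactivate ABA, moved in opposite directions. CYP707A1 had 3.57, 5.10 and 4.08 CPM in wounded isi1-2 against 1.00, 1.33 and 0.699 CPM in unwounded isi1-2, and 2.82, 4.01 and 4.16 CPM in wounded WT against 1.38, 1.73 and 1.55 CPM in unwounded WT. Every wounded library lay above every unwounded one. The change was 2.05 on the log2 scale (SE 0.24, edgeR adjusted p = 2.25e-06) in isi1-2 and 1.23 (SE 0.23, edgeR adjusted p = 0.000281) in WT. CYP707A3 had 12 to 38 reads in a library. It had 0.540, 0.486 and 0.793 CPM in wounded isi1-2 against 1.37, 1.29 and 0.740 CPM in unwounded isi1-2, which overlap. In WT it had 0.638, 0.630 and 0.589 CPM in wounded plants against 1.18, 1.05 and 1.00 CPM in unwounded plants, which do not. Wounding changed it by -0.91 on the log2 scale (SE 0.30, edgeR adjusted p = 0.0171) in isi1-2 and -0.80 (SE 0.29, edgeR adjusted p = 0.0351) in WT. The isi1-2 call was lost when unwounded replicate 1 or 2 or wounded replicate 1 or 2 was left out (edgeR adjusted p of 0.0562 to 0.0726). The WT call was lost when any 1 of the 6 WT libraries was left out (0.0543 to 0.0976) and under DESeq2 (adjusted p = 0.0736).

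Per base of transcript, CYP707A1 stood below CYP707A3 in unwounded isi1-2 and above it in the other 3 groups. The ratio of CYP707A1 to CYP707A3, in RPKM (CPM divided by exon length in kilobases), was 6.39, 10.1 and 4.97 in wounded isi1-2 against 0.705, 0.991 and 0.912 in unwounded isi1-2. It was 4.26, 6.15 and 6.82 in wounded WT against 1.13, 1.59 and 1.49 in unwounded WT. The pair was chosen for a ratio after its values were seen, so the ratios carry no test.

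**Figure D2:**
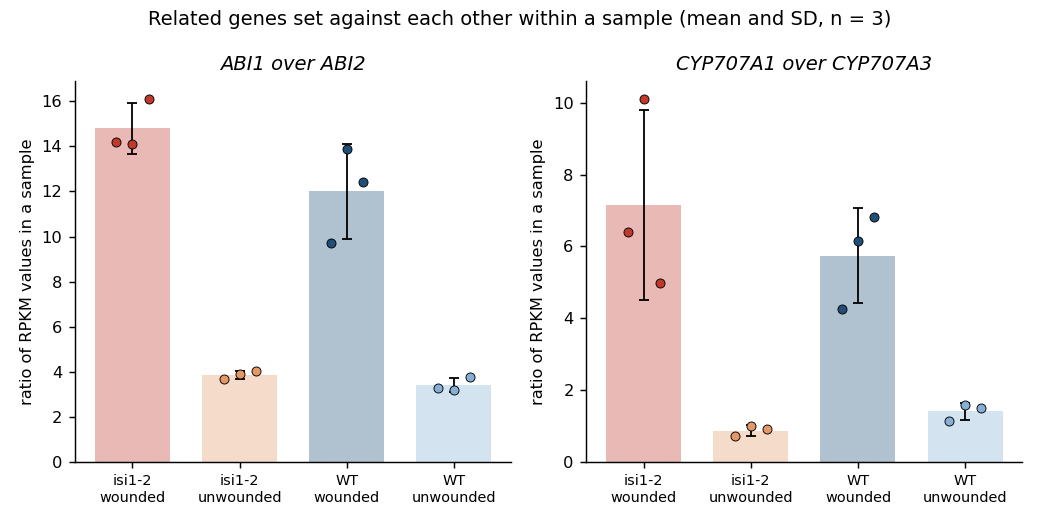
Ratio of RPKM for ABI1 over ABI2 and for CYP707A1 over CYP707A3 in each of the 12 libraries (points), with bars for the mean and whiskers for the SD of each group (n = 3). Both ratios are higher in each wounded library than in any unwounded library of either genotype.

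ABI1, the most abundant member, and its close paralogue ABI2 also parted. ABI1 had 173, 129.5 and 130.3 CPM in wounded isi1-2 against 58.5, 57.3 and 65.7 CPM in unwounded isi1-2, and 117, 108 and 107 CPM in wounded WT against 66.6, 51.6 and 57.6 CPM in unwounded WT. Wounded libraries were all higher. The log2 fold change was 1.26 (SE 0.12, edgeR adjusted p = 1.02e-06) in isi1-2 and 0.92 (SE 0.12, edgeR adjusted p = 2.37e-05) in WT. ABI2 had 12.9, 9.68 and 8.53 CPM in wounded isi1-2 against 16.7, 15.5 and 17.2 CPM in unwounded isi1-2, and 12.6, 8.16 and 9.10 CPM in wounded WT against 21.4, 17.0 and 16.1 CPM in unwounded WT. Wounded libraries were all lower within each genotype. For ABI2 the log2 fold change was -0.67 (SE 0.17, edgeR adjusted p = 0.00567) in isi1-2 and -0.87 (SE 0.17, edgeR adjusted p = 0.001) in WT. The ratio of ABI1 to ABI2 in RPKM was 14.2, 14.1 and 16.1 in wounded isi1-2 against 3.68, 3.89 and 4.01 in unwounded isi1-2, and 9.73, 13.9 and 12.4 in wounded WT against 3.28, 3.19 and 3.75 in unwounded WT, again without a test.

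HAI1 and HAI2, phosphatase genes known for strong induction by ABA and drought, were low and scattered. HAI1 had 36, 89 and 16 reads in wounded isi1-2 against 20, 11 and 7 in unwounded isi1-2, or 1.495, 3.60 and 0.634 CPM against 0.742, 0.375 and 0.288 CPM. In WT it had 0.789, 1.43 and 2.69 CPM in wounded plants against 1.10, 1.13 and 0.879 CPM in unwounded plants. Wounded and unwounded libraries overlapped in both genotypes. For HAI1 the log2 fold change was 2.01 (SE 0.67, edgeR adjusted p = 0.0265) in isi1-2 and 0.65 (SE 0.60, edgeR adjusted p = 0.403) in WT. The isi1-2 call rested on wounded replicate 2 (1.16 and edgeR adjusted p = 0.118 without it) and was also lost without unwounded replicate 2 (0.0846), without unwounded replicate 3 (0.0839), with all genes kept (0.0503) and with only the compared groups in the fit (0.0508).

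HAI2 had 5.15, 4.74 and 2.38 CPM in wounded isi1-2 against 2.34, 2.45 and 2.59 CPM in unwounded isi1-2, and 2.33, 1.82 and 2.14 CPM in wounded WT against 6.55, 2.56 and 3.35 CPM in unwounded WT. The groups overlapped in isi1-2 and not in WT. The log2 fold change was 0.73 (SE 0.34, edgeR adjusted p = 0.0931) in isi1-2 and -0.98 (SE 0.34, edgeR adjusted p = 0.0331) in WT. Unwounded WT replicate 1 carried much of the WT value, which was -0.49 (edgeR adjusted p = 0.173) without it. The WT call was also lost without wounded replicate 1 (0.0578), 2 (0.107) or 3 (0.0767) and with all genes kept (0.0516). The isi1-2 difference passed the threshold without isi1-2 wounded replicate 3 (1.01, edgeR adjusted p = 0.0149) or WT unwounded replicate 1 (edgeR adjusted p = 0.0197). With only the compared groups in the fit, HAI2 was called in isi1-2 (0.74, edgeR adjusted p = 0.0258) and not in WT (-0.98, edgeR adjusted p = 0.0507).

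ABF3, the transcription factor of the set, fell in both genotypes. It had 11.9, 10.1 and 8.84 CPM in wounded isi1-2 against 18.4, 18.6 and 17.0 CPM in unwounded isi1-2, and 10.7, 12.3 and 12.2 CPM in wounded WT against 29.7, 19.8 and 22.1 CPM in unwounded WT. No wounded library reached the level of an unwounded one. The log2 fold change was -0.81 (SE 0.14, edgeR adjusted p = 0.000212) in isi1-2 and -1.02 (SE 0.14, edgeR adjusted p = 2.23e-05) in WT.

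Neither target with an ABRE beside its start rose past the threshold in the leaf at 1 h. RD29B, a standard reporter of ABA signalling, had 12, 15 and 9 reads in wounded isi1-2 against 9, 10 and 4 in unwounded isi1-2, and 8, 16 and 19 in wounded WT against 18, 5 and 6 in unwounded WT. That is 0.357 to 0.607 CPM in wounded against 0.165 to 0.341 CPM in unwounded isi1-2, and 0.300 to 0.700 CPM in wounded against 0.188 to 0.733 CPM in unwounded WT. The ranges were separate in isi1-2 and overlapped in WT. Its log2 fold change was 0.77 (95% interval -0.34 to 1.87, edgeR adjusted p = 0.236) in isi1-2 and 0.40 (-0.63 to 1.43, edgeR adjusted p = 0.532) in WT, so both no change and a rise above 2-fold lay within the intervals at this depth. RAB18, a dehydrin gene, had 20.1, 15.9 and 16.1 CPM in wounded isi1-2 against 16.1, 17.6 and 18.5 CPM in unwounded isi1-2, and 12.7, 12.6 and 16.3 CPM in wounded WT against 22.3, 16.6 and 20.4 CPM in unwounded WT. The isi1-2 groups overlapped, and in WT every wounded library was lower. Its log2 fold change was 0.00 (interval -0.28 to 0.27, edgeR adjusted p = 0.98) in isi1-2 and -0.51 (SE 0.13, edgeR adjusted p = 0.00423) in WT.

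Set against the promoter sequences, the 4 genes with an ABRE in the window were not called alike. Of the 2 genes that hold GACACGTG, CYP707A1 was called higher and CYP707A3 lower in both genotypes, the latter with fragile calls. RAB18 was called lower in WT and was at 0.00 in isi1-2. RD29B, with 3 ABREs and 4 to 19 reads in a library, was not called, and its intervals included a rise above 2-fold. Whether the motifs bear on these changes was not tested. The genes are too few to compare with members lacking a match to the searched strings.

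**Figure D3:**
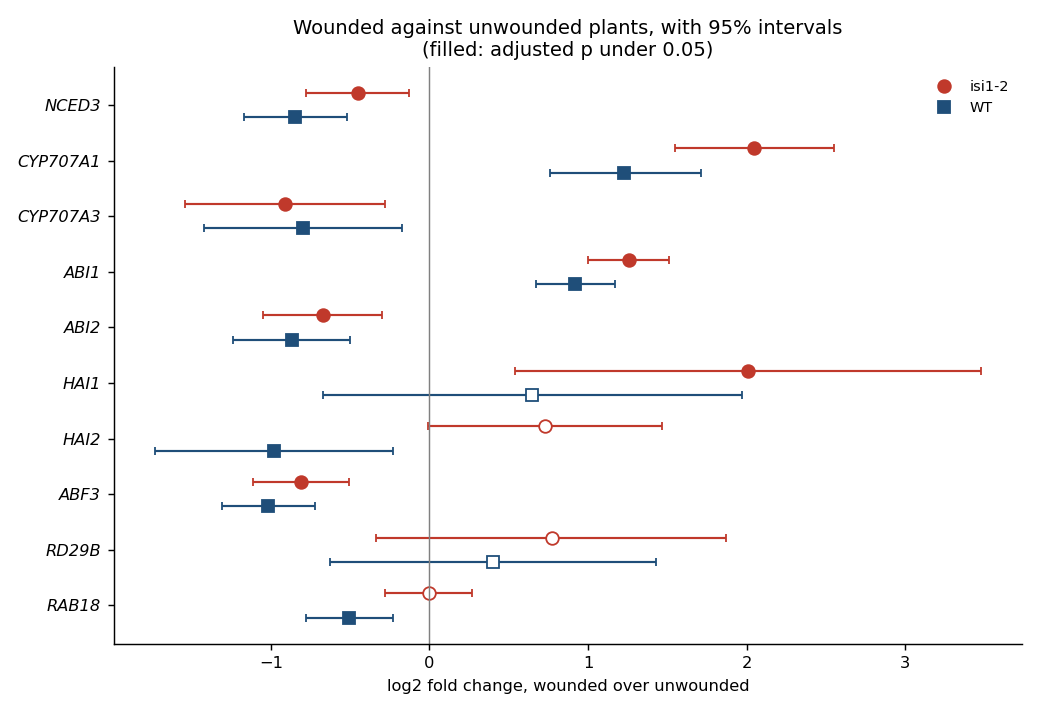
Log2 fold change of each gene after wounding (wounded minus unwounded, horizontal axis) with its 95% interval, for isi1-2 and WT, filled where the edgeR adjusted p is under 0.05. CYP707A1 and ABI1 lie right of 0 and NCED3, CYP707A3, ABI2 and ABF3 left of it in both genotypes, whereas HAI2 lies at 0.73 in isi1-2 and -0.98 in WT.

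A wider list of 77 ABA genes, sorted by role and including the 10, places these changes in the pathway. Of its 60 tested genes, 43 were called in isi1-2 (25 higher, 18 lower) and 43 in WT (21 higher, 22 lower), or 71.7% in each, beside 50.9% of all genes in isi1-2 and 46.9% in WT. Of all genes, 25.1% were higher and 25.7% lower in isi1-2, and 23.9% higher and 23% lower in WT. The calls were shared for 34 genes, 33 of them in the same direction. Leaving out the 10 members, 36 of 50 genes were called in isi1-2 and 35 of 50 in WT. The 17 genes not tested had 0 to 14 reads in any library.

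By role, and without the members, 2 synthesis genes rose and 3 of 6 fell in isi1-2, while 1 rose and 2 fell in WT. ABA1, the zeaxanthin epoxidase that supplies the carotenoid precursor, had 145 ± 27.4 CPM in wounded against 262 ± 16.3 CPM in unwounded isi1-2 and 160 ± 17.8 against 288 ± 19.2 CPM in WT (SD, n = 3 each). Its log2 fold change was -0.86 in isi1-2 (edgeR adjusted p = 4.57e-05) and -0.85 in WT (edgeR adjusted p = 6.06e-05). Both remaining catabolic genes tested fell, CYP707A2 by 1.78 in isi1-2 and by 2.12 in WT on the log2 scale, and CYP707A4 by 2.82 and 2.60. Both were low, at 2.03 and 1.57 CPM on average in unwounded isi1-2 and 3.29 and 2.21 CPM in unwounded WT. After wounding CYP707A2 had 9 to 18 reads in isi1-2 and 16 to 29 in WT. CYP707A4 had 1 to 8 and 3 to 14 reads there, so the size of its fall is imprecise. CYP707A1 was thus the only one of the 4 tested CYP707A genes that was higher in wounded plants. Among 4 genes that attach glucose to ABA or release it, 3 rose in isi1-2 and 2 in WT. BGLU18, a glucosidase that frees ABA from its glucose ester, had 1230 ± 210 CPM in wounded against 60.0 ± 14.6 CPM in unwounded isi1-2, and 830.0 ± 381 against 71.9 ± 28.1 CPM in WT (SD, n = 3 each). Its log2 fold change was 4.36 in isi1-2 (edgeR adjusted p = 2.79e-05) and 3.53 in WT (edgeR adjusted p = 0.000105).

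Of 8 receptor genes tested, 5 rose and 1 fell in isi1-2, and 5 rose and 2 fell in WT. Over all genes 50.9% were called in isi1-2 and 46.9% in WT, and the small counts by role were not tested against these shares. Among 3 further phosphatase genes, 1 rose in isi1-2, while 1 rose and 2 fell in WT. Among 4 further transcription factor genes, 1 rose and 2 fell in each genotype. The 3 repressor genes gave 1 rise in isi1-2 and 1 fall in WT. The 3 transport genes gave 2 rises in each genotype and 1 fall in isi1-2. All 3 SnRK2 kinase genes tested fell in isi1-2 and 2 of them in WT. SNRK2.3, a kinase activated by ABA, had 22.6 ± 0.591 CPM in wounded against 41.9 ± 0.817 CPM in unwounded isi1-2 and 28.2 ± 2.22 against 39.8 ± 0.568 CPM in WT (SD, n = 3 each). Among 14 other targets, 7 rose in each genotype, while 2 fell in isi1-2 and 3 in WT. RD26, a stress NAC factor also induced by jasmonate, had 119 ± 33.9 CPM in wounded against 2.54 ± 0.0816 CPM in unwounded isi1-2, and 95.6 ± 27.8 against 3.29 ± 0.885 CPM in WT (SD, n = 3 each). Its log2 fold change of 5.55 in isi1-2 (edgeR adjusted p = 7.64e-07) and 4.85 in WT (edgeR adjusted p = 2e-06) and that of RD20, a caleosin gene, at 4.20 (9.36e-08) and 3.47 (4.1e-07), far exceeded those of RD29B and RAB18. ATHB7, a homeodomain factor gene, was called in WT alone, with 2.18 ± 0.336 CPM in wounded and 4.10 ± 1.43 CPM in unwounded WT (SD, n = 3 each), a log2 fold change of -0.91 (edgeR adjusted p = 0.00308), against 0.31 (edgeR adjusted p = 0.26) in isi1-2. The interaction for ATHB7 was 1.22 (edgeR adjusted p = 0.161). P5CS1, a proline synthesis gene, fell by 1.25 in isi1-2 (edgeR adjusted p = 0.00118) and by 1.31 in WT (edgeR adjusted p = 0.000983) on the log2 scale. The list was drawn up with earlier results of these samples known, so its counts are descriptions.

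**Figure D4:**
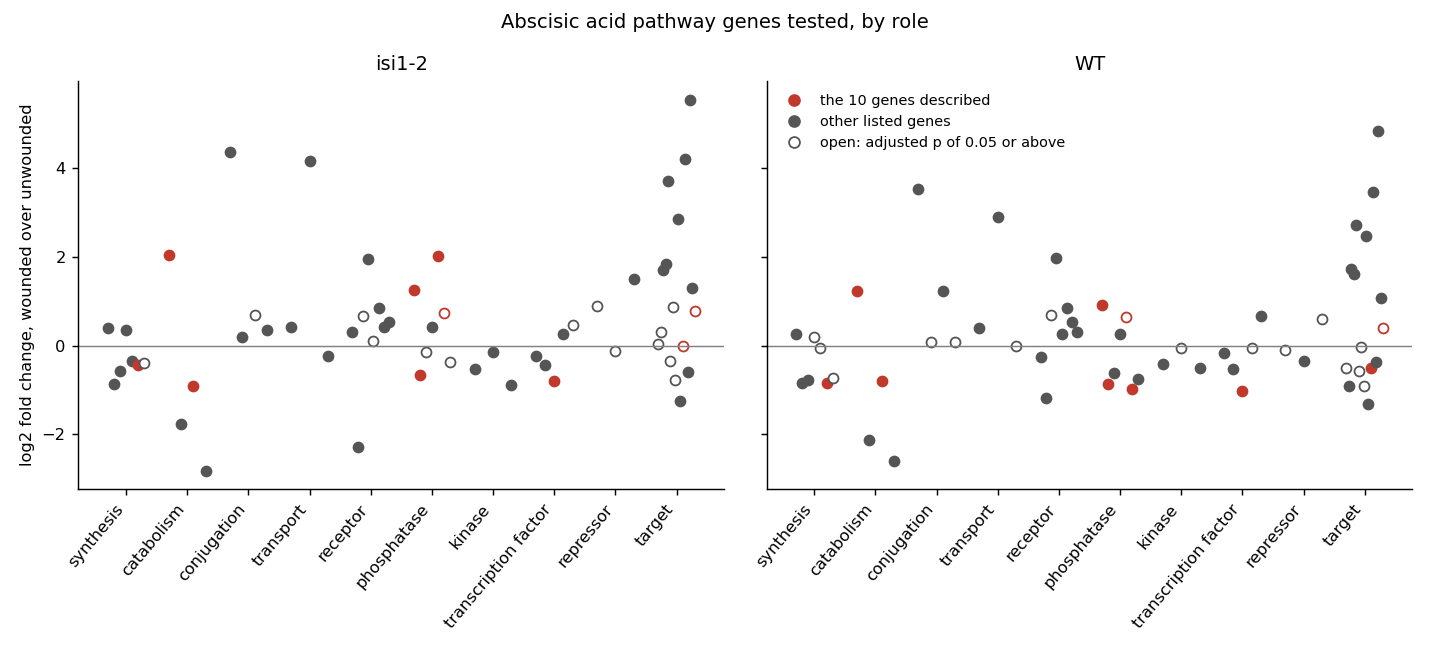
Log2 fold change (wounded over unwounded, vertical axis) of each of the 60 tested genes of the wider ABA list, by role along the horizontal axis, with a panel for isi1-2 and one for WT, the 10 members in red and filled points called at an edgeR adjusted p under 0.05. The 3 kinase genes lie below 0, and CYP707A1 is the 1 catabolic gene above 0, in both panels.

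In unwounded plants no member was called between the genotypes. The comparison of isi1-2 with WT called 0 of 10 members and 0.128% of all genes in edgeR. DESeq2 called 0 of the 9 members to which it gave an adjusted p. In edgeR 3 of 10 had an unadjusted p under 0.05 (ABF3, CYP707A1 and HAI2), beside 9.13% of all genes. ABF3 had the smallest p, with 18.0 ± 0.875 CPM in isi1-2 against 23.9 ± 5.20 CPM in WT (SD, n = 3 each) and a log2 difference of -0.41 (SE 0.13, edgeR adjusted p = 0.387). CYP707A1 averaged 1.01 ± 0.315 CPM in isi1-2 against 1.55 ± 0.173 CPM in WT, a log2 difference of -0.60 (95% interval -1.16 to -0.04, edgeR adjusted p = 0.512). HAI1 was at 0.288 to 0.742 CPM in isi1-2 against 0.879 to 1.13 CPM in WT, a difference of -1.13 (SE 0.72, edgeR adjusted p = 0.698). These last 2 and ABF3 were the 3 of 10 members whose groups did not overlap, where 16.5% of all genes did not. In 8 of 10 members isi1-2 was lower, with a median of -0.29. Over all genes it was lower in 9450 of 18698, with a median of 0.00. WT replicate 1 was the highest of its group in 7 of 10 members, and without it the members' median was -0.08.

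In wounded plants 0 of 10 members were called in edgeR, where 2.39% of all genes were. An unadjusted p under 0.05 was found for 3 of 10 (ABI1, HAI2 and RAB18), all higher in isi1-2, beside 16.6% of all genes. ABI1 averaged 144 ± 25.1 CPM in isi1-2 against 111 ± 5.30 CPM in WT (SD, n = 3 each), with every isi1-2 library above every WT library and a log2 difference of 0.38 (95% interval 0.14 to 0.63, edgeR adjusted p = 0.103). Of the 9 members with an adjusted p in DESeq2, it called ABI1 alone (0.39, adjusted p = 0.034), and over the alternatives its adjusted p ran from 0.0262 to 0.291. Without isi1-2 wounded replicate 1 the difference was 0.23. HAI2 averaged 4.09 ± 1.49 CPM in isi1-2 against 2.10 ± 0.254 CPM in WT, also without overlap, a log2 difference of 0.96 (0.21 to 1.72, edgeR adjusted p = 0.178). ABI1 and HAI2 were the 2 of 10 members whose groups did not overlap, beside 20.1% of all genes. RAB18 averaged 17.3 ± 2.35 CPM in isi1-2 against 13.9 ± 2.10 CPM in WT, a log2 difference of 0.32 (0.04 to 0.60, edgeR adjusted p = 0.224). In the wider list SNRK2.3 was the 1 gene called, lower in isi1-2 by a log2 difference of -0.32 (SE 0.07, edgeR adjusted p = 0.0198). That call was lost without WT wounded replicate 3 (0.0737), isi1-2 wounded replicate 2 (0.0833) or isi1-2 wounded replicate 3 (0.065), and with only the compared groups in the fit (0.118).

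**Figure D5:**
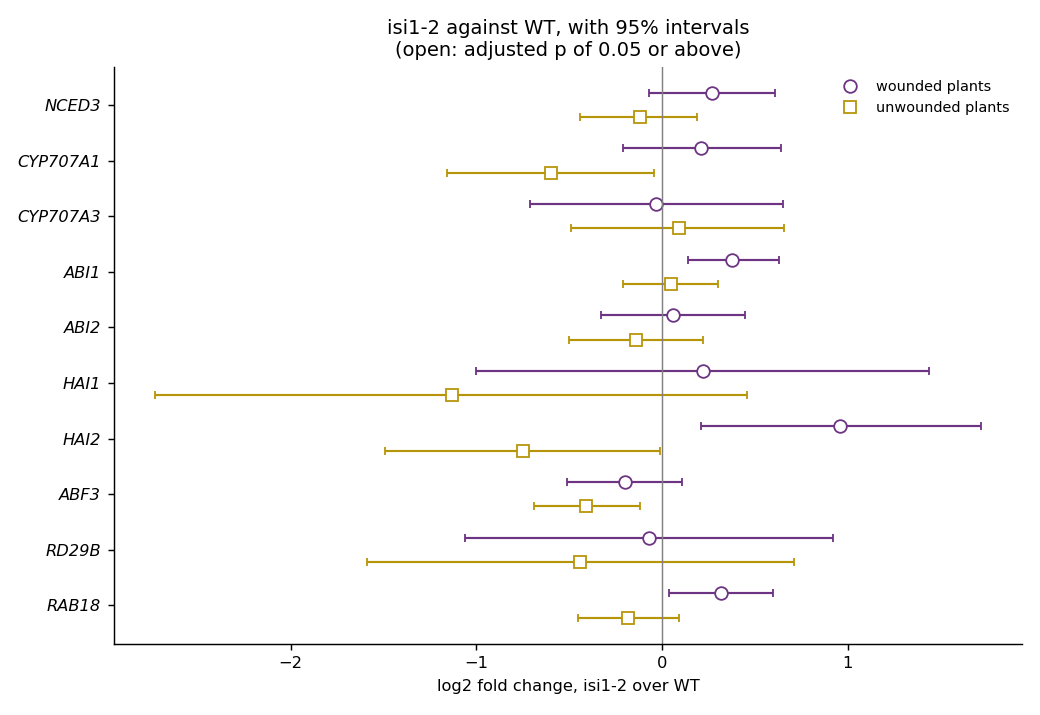
Log2 fold change between the genotypes (isi1-2 over WT, horizontal axis) with its 95% interval for each gene, in wounded plants (circles) and unwounded plants (squares). All symbols are open because none passed an edgeR adjusted p of 0.05, and HAI2 lies at 0.96 in wounded and -0.75 in unwounded plants.

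The interaction term asked whether the response to wounding depended on genotype. Among the members it called 0 of 10, beside 0.0321% of all genes in edgeR. An unadjusted p under 0.05 was found for 3 of 10 (HAI2, RAB18 and CYP707A1), beside 10.5% of all genes. DESeq2 gave an adjusted p to 4 of the members (ABI1, ABI2, ABF3 and RAB18) and called none of these 4. HAI2 had the smallest p and the widest gap, 1.71 log2 units (SE 0.48, 95% interval 0.66 to 2.77, edgeR adjusted p = 0.224). RAB18 was at 0.50 (SE 0.18, edgeR adjusted p = 0.34) and CYP707A1 at 0.82 (SE 0.33, edgeR adjusted p = 0.402). HAI1 had the next widest gap after HAI2, at 1.36 (SE 0.91, edgeR adjusted p = 0.655). The calls of HAI1 in isi1-2 alone and of HAI2 and RAB18 in WT alone are therefore not shown to be differences between the genotypes. In 9 of 10 members the interaction was positive, with a median of 0.38. Over all genes it was positive in 9056 of 18698, with a median of -0.01. The members were read from the same 12 libraries, so their signs are not independent and were not tested as a set. Without WT unwounded replicate 1 the interaction was positive in 8 members with a median of 0.29. Among wider list genes PYL1, a receptor gene, was called in opposite directions, at 0.30 in isi1-2 (edgeR adjusted p = 0.0125) and -0.26 in WT (edgeR adjusted p = 0.0286), with an interaction of 0.56 (edgeR adjusted p = 0.127). Its WT call was lost without unwounded replicate 2 (-0.19) or 3 (-0.24) or wounded replicate 2 (-0.22) or 3 (-0.23), and its isi1-2 call without unwounded replicate 1 (0.26).

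Levels of the members, compared per length in RPKM, spanned a wide range in each group. ABI1 was highest and RAB18 next in all 4 groups, and RD29B was lowest in all 4. In wounded isi1-2 ABI1 averaged 66.6 RPKM, RAB18 15.9, ABI2 4.54, ABF3 4.21, HAI2 2.15, CYP707A1 2.01, NCED3 1.46, HAI1 0.917, CYP707A3 0.297 and RD29B 0.225. The replicate ranges of ABI2 and ABF3 overlapped there, as did those of HAI2 and CYP707A1 and those of each neighbouring pair from NCED3 down. Unwounded isi1-2 was the group where CYP707A3 (0.556) averaged above CYP707A1 (0.478), with overlapping replicates, and in wounded WT CYP707A1 was at 1.73, above NCED3 at 1.21. In unwounded WT the order was ABI1 at 27.0 RPKM, RAB18 18.1, ABF3 9.76, ABI2 7.96, NCED3 and HAI2 each 2.18, CYP707A1 0.735, CYP707A3 0.529, HAI1 0.497 and RD29B 0.180. There ABF3 overlapped ABI2, NCED3 overlapped HAI2 and CYP707A3 overlapped HAI1.

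Over the 12 libraries, the genes most like each member were listed by the Pearson r of log2 CPM, a description in which the shared wounding difference counts for much. NCED3 was most like NF-YB2 (AT5G47640, r = 0.969), AT4G37560 (0.947) and AT2G03810 (0.941). HAI1 was most like MEF9 (AT1G62260, 0.929), GOS12 (AT2G45200, 0.897) and AIL5 (AT5G57390, 0.887). RAB18 was most like HB24 (AT2G18350, 0.881), FAD2 (AT3G12120, 0.859) and AT3G14595 (0.851).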

How the data were processed

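Leaf RNA libraries (stranded mRNA kit, single-end Illumina reads, per the labels' protocols) were deposited as whole-number read counts per gene for 12 samples, 3 in each of 4 groups. The authors' tools were cutadapt 1.8, STAR 2.5.3a and HTSeq 0.9.1 with the build TAIR10, per the submitters' processing notes; the strand setting of the counting was not given in the sources used here. Summary rows stayed out of library sizes (of all reads in a table, non-unique 4.19 to 4.46%, no feature 0.652 to 0.95%, ambiguous 0.096 to 0.117%).

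Genes kept by filterByExpr (minimum count 10, minimum total 15) were fitted in all 4 groups with edgeR 4.0.16 in R 4.3.3, with TMM scaling, robust quasi-likelihood dispersion and Benjamini-Hochberg adjustment over 18698 genes. The coefficient of biological variation was 8.85%. Intervals are 95% intervals of the fit; SE is the log2 fold change divided by the root of F. CPM uses TMM library sizes. No batch was labelled. Alternatives were RLE scaling, no filter, DESeq2 1.42.0, only the compared groups, a replicate block, each library left out and a 2-fold minimum.

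Locus codes were matched to RefSeq TAIR10.1 (32548 of 34262), which also gave lengths and promoters; the files hold no coordinates. The members and gene lists were chosen with earlier results of these data known. Wider list genes were named where they had the largest change either way among called genes, at a mean log2 CPM of at least 1 (the 3 largest in each direction); CYP707A2, CYP707A4 and PYL1 were named after their values were seen.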

Additional observations from a re-analysis of the deposited data

How the results depend on the processing

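Of 600 member fold changes recomputed with 1 library left out, 555 kept their direction and their side of the threshold. A call was lost in 19, gained in 2, and the sign changed in 24. These include fits without a library outside the 2 groups compared, which barely moves the fold change. The share kept is therefore no measure of stability. Of 238 under the other settings, 226 were kept. With 1 library left out, members called numbered 6 to 8 for wounding in WT and 5 to 8 in isi1-2, and 0 for both genotype comparisons and the interaction; without WT wounded replicate 1 they numbered 6 in WT. A 2-fold minimum left 3 members in isi1-2 and 2 in WT, and 18 and 17 wider list genes. In wounded plants, DESeq2 and the replicate block each called 1 member between genotypes, ABI1 (block 0.38, edgeR adjusted p = 0.0262). The wider list there gave 4 genes under DESeq2, 2 with RLE scaling, 3 without a filter, 3 with the block, 0 with only the compared groups, 0 at 2-fold, and 0 to 3 with 1 library left out, against 1 (SNRK2.3). In unwounded plants the list gave 1 (RD22) with only the compared groups and with the block, and the interaction gave 2 under DESeq2 and 0 to 1 with 1 library left out. Over all genes, the settings other than leaving out a library called 6 to 94 between genotypes in unwounded plants (24 in the fit reported), 48 to 715 in wounded plants (446) and 1 to 151 for the interaction (6), and leaving out 1 library gave 6 to 48, 104 to 940 and 0 to 245. The highest of each, 48, 940 and 245, was without WT wounded replicate 1, which also left 40 wider list genes for wounding in WT, 3 between genotypes in wounded plants and 1 for the interaction.

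Sign changes were all of values not called. The RAB18 wounding effect in isi1-2 was 0.00 under DESeq2, RLE scaling and only the compared groups, and -0.12 to 0.05 with 1 library left out. The unwounded genotype difference spanned -0.06 to 0.30 for CYP707A3, -0.04 to 0.15 for ABI1 and -0.79 to 0.37 for RD29B. The wounded one spanned -0.27 to 0.11 for CYP707A3, -0.13 to 0.27 for ABI2, -0.62 to 0.77 for HAI1 and -0.32 to 0.21 for RD29B. The interaction spanned -0.36 to 0.04 for CYP707A3 and -0.45 to 0.72 for RD29B. The causes were not tested. Whether replicate numbers pair the samples was not tested. Deviations of same-numbered samples correlated at -0.03 to 0.185, and 4 of 12 such pairs exceeded 0.1. Those of differently numbered samples ran from -0.191 to 0.151. With the replicate block, calls over all genes went from 24 to 66 between genotypes in unwounded plants and from 446 to 703 in wounded plants. For the interaction they went from 6 to 75. Beside ABI1, the block ended the HAI1 call in isi1-2 (1.95, edgeR adjusted p = 0.0531) and no other member call. RD29B had 4 to 19 reads in a library and CYP707A3 12 to 38, which limits the precision of their values.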
